A study of Homo sapiens with 3 samples.

Results

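The genes described here make, remove, export and sense sphingosine-1-phosphate (S1P). They are the kinases SPHK1 and SPHK2, the phosphatase SGPP1, the lyase SGPL1, the acid ceramidase ASAH1, the exporter SPNS2 and the receptors S1PR1, S1PR2, S1PR3 and S1PR5. These 10 genes were taken by symbol from the 58037 genes in the count table. RNA sequencing had been carried out on A375, an established human melanoma cell line, in 3 libraries. Control cells were kept in serum-free DMEM, YA-A375 cells in the secretome of young adipocytes and OA-A375 cells in that of old adipocytes, which is medium that the adipocytes had conditioned. The series design gives an exposure of 24 h, and a protocol shared by the samples allows a longer one. The adipocytes had been differentiated in culture from human preadipocytes, with dexamethasone, insulin, indomethacin and IBMX in the differentiation medium. The labels do not say how many donors stood behind each secretome, and each group is 1 library of 1 cell line. No difference given here therefore has a replicate check, and no p-value was computed.

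Ceramide is cleaved by ceramidases to sphingosine, which the sphingosine kinases phosphorylate to S1P. S1P is returned to sphingosine by phosphatases or broken down irreversibly by the lyase, so that its level rests on opposing enzymes. Exported S1P acts on a family of G protein-coupled receptors whose members use different G proteins, and is best known for guiding lymphocytes out of tissues, for vascular integrity and, in tumors, for survival and migration. The study took SPHK1 as a readout of this pathway in cells given young or old secretome, A375 among them. The SPHK1 values below are therefore not independent evidence of its direction. The study's own SPHK1 comparison had several samples per group, and it also measured STAT3 phosphorylation and IL-6 secretion.

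Total counts ranged from 18089008 in OA to 21448195 in control. Counts were divided by size factors to give normalised counts, and fold changes were taken over the 14413 genes whose normalised counts averaged 20 or more. Of the 10 members, 9 passed this limit and S1PR3 had too few counts for a fold change. Values set in threes below stand in the order control, YA, OA. A gene was called higher or lower past 1.2-fold on log2 normalised counts with a pseudocount of 1. The study's methods give 1.2 for the upregulated genes they took into pathway analysis without naming a scale, and it is read here as a linear fold and used in both directions. Each fold below is the ratio of normalised counts with its 95% counting interval, which covers counting error in the reads of 2 libraries only. A375 carried the melanoma surface markers CSPG4, MCAM and AXL at 6699 counts or more in every library, and MITF at 1221, 764 and 881 counts in control, YA and OA. The pigment cell genes TYR and DCT stood at 2 counts or fewer, and SOX10, a neural crest factor usual in melanoma, was listed at 0 in all 3 libraries.

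SPHK1, the inducible cytosolic kinase, was lowest in YA-A375 and highest in OA-A375. Its counts were 147, 80 and 197 (normalised counts 138.5, 75.6 and 221.1). The 3 libraries were apart from one another: the Poisson intervals of the RPKM, which is reads scaled to exon length and library total, ran from 0.674 to 1.06 in YA, from 1.31 to 1.82 in control and from 2.13 to 2.84 in OA. SPHK1 was at 0.546 of control in YA (interval 0.410 to 0.722) and at 1.60 of control in OA (1.28 to 1.99). Taken directly, YA stood at 0.342 of OA (0.260 to 0.446). All 3 intervals lay wholly beyond 1.2-fold. The gene (ENSG00000176170.13) lies on the plus strand of GRCh38 chromosome 17, from 76376584 to 76387860, and shares 1.34% of its exon bases with an exon of PRPSAP1 on the other strand.

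SPHK2, the kinase of the nucleus and mitochondria, varied much less. It had 577, 602 and 444 counts. Against control it stood at 1.05 in YA (0.932 to 1.18) and at 0.917 in OA (0.808 to 1.04), so no difference was detectable at this depth. YA was 1.14-fold of OA, with an interval just above 1 (1.01 to 1.29) and within the 1.2-fold limit. SPHK2 (ENSG00000063176.15; chromosome 19, 48619291 to 48630717, plus strand) shares 22.3% of its exon bases with genes on the other strand, among them RPL18 and DBP. In this table, protein-coding genes whose exons lie wholly under exons of the other strand were at 0 in all 3 libraries in 17 of 20 cases, against 16.3% of the genes that share no exon base. Whether SPHK2 lost reads in the shared stretch was not tested.

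The share of SPHK1 among the kinase reads was lowest in YA and highest in OA. SPHK1 took 20.3% of the kinase reads in control (95% Clopper-Pearson interval 17.4 to 23.4), against 11.7% (9.41 to 14.4) for YA and 30.7% (27.2 to 34.5) for OA. The 3 intervals do not overlap, and these shares are free of library scaling. Per exon length, SPHK1 made up 25.7%, 15.3% and 37.7% of the kinase signal in the same order, so SPHK2 was the more abundant kinase transcript in every library. The summed kinase reads were 724, 682 and 641. Normalised, the sum stood at 0.945 of control in YA (0.850 to 1.05), at 1.06 in OA (0.947 to 1.18) and, for YA over OA, at 0.896 (0.803 to 0.999), so the sum differed less than SPHK1 did.

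**Figure D1:**
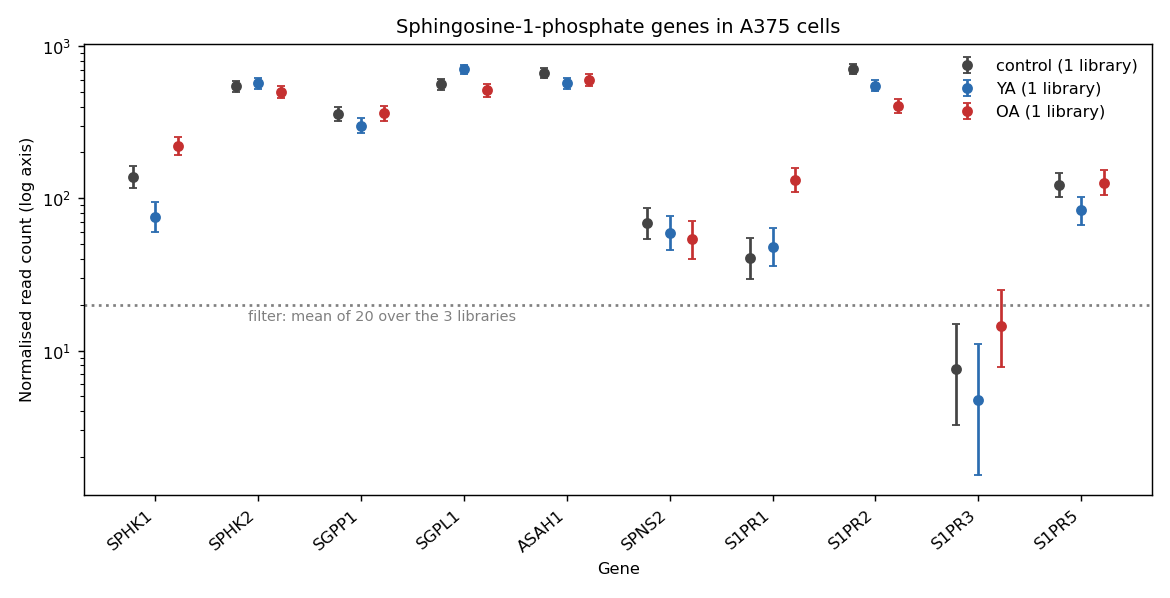
Normalised read counts (log axis) of the 10 genes in control, YA and OA, 1 library each, with exact Poisson 95% intervals as bars and the mean-count limit of 20 dotted. SPHK1 runs from 75.6 in YA to 221.1 in OA, S1PR1 stands apart in OA at 132.5, S1PR2 is at 703.0 in control and 404.1 in OA, and S1PR3 lies below the limit.

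The promoters of the 3 members with the largest fold changes in OA against control, SPHK1, S1PR1 and S1PR2, are shown. RefSeq windows of 250 bases before a transcription start were found for 7 of the 10 members, with 3 separate starts for SPHK1. Printed are the stretches in no GENCODE 29 exon of the gene itself, on GRCh38.p14 and on the gene's own strand. The 23 bases left of SPHK1 start 1, with its kB-like match, are not printed. SPHK1 start 2 is chr17:76384359-76384608 (plus), SPHK1 start 3 is chr17:76385170-76385277 (plus), S1PR1 is chr1:101236769-101236864 (plus) and S1PR2 is chr19:10231332-10231581 (minus). Capitals mark matches on either strand to the searched motifs.
SPHK1 start 2: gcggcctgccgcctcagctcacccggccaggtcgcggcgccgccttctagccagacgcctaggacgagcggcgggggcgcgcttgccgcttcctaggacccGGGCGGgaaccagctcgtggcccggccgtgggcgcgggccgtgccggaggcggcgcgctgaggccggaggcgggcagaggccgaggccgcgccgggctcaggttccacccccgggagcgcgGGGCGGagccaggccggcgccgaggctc
SPHK1 start 3: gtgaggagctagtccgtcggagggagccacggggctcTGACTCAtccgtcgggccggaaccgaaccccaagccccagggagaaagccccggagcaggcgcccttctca
S1PR1: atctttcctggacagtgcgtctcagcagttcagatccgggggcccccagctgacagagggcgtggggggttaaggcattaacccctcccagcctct
S1PR2: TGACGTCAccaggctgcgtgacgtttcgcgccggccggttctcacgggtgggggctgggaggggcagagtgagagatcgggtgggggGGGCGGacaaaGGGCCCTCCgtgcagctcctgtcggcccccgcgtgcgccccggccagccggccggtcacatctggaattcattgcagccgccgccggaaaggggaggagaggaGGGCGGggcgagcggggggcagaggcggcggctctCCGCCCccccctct

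The windows were searched for the STAT pattern TTCNNNGAA, the AP-1 pattern TGANTCA, the SP1 box GGGCGG, the E-box CACGTG, the CRE TGACGTCA and a kB-like pattern GGGNNNTCC, on both strands and over the whole 250 bases, with overlapping matches each counted. The SPHK1 windows held 1 SP1 box and 1 kB-like pattern at start 1, 2 SP1 boxes at start 2, and 1 AP-1 and 1 kB-like pattern at start 3, the last of these outside the stretch printed. An AP-1 pattern was found in 6.57% of all 35116 windows of the same length, and an SP1 box in 42.6%. S1PR2 held 3 SP1 boxes, 1 kB-like pattern, found in 18.4% of windows, and 1 CRE, found in 1.65%. The S1PR1 window held none of the 6 patterns, and no member's window held the STAT pattern, which 6.57% of windows hold, or the E-box, which 6.34% hold. A match is a match of letters only, and the window used by A375 cells is not known from these data. The 3 SPHK1 windows had GC contents of 72.4%, 80.8% and 66.4%, beside a median of 58% over all windows.

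SGPL1, the lyase that breaks S1P down for good, was higher than control in YA, where SPHK1 was lower. It had 594, 741 and 455 counts, so that YA was the highest library. It was at 1.25 of control in YA (1.12 to 1.40) and at 0.913 in OA (0.806 to 1.03), and YA was 1.37-fold of OA (1.22 to 1.54). Only this last interval lay wholly beyond 1.2-fold. The gene (ENSG00000166224.16) covers 70815961 to 70881173 on chromosome 10 and shares no exon base with another gene.

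The reads of SPHK1 per read of SGPL1 set the forming against the degrading transcript within a library. The ratio was 0.248 (0.205 to 0.297), 0.108 (0.0846 to 0.136) and 0.433 (0.364 to 0.513). The 3 intervals do not overlap. Per exon length the ratios were 0.420, 0.183 and 0.734, with the lyase the more abundant transcript throughout. SPHK2 per read of SGPL1 was 0.971 (0.865 to 1.09), 0.812 (0.728 to 0.906) and 0.976 (0.854 to 1.12), with overlapping intervals.

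SGPP1, the S1P phosphatase of the endoplasmic reticulum, was slightly lower in YA. It had 380, 317 and 322 counts, which is 358.1, 299.6 and 361.4 after normalisation. YA was at 0.837 of control (0.719 to 0.974), just inside the 1.2-fold limit. It was at 0.829 of OA (0.708 to 0.971), just past the limit, a call that is lost when libraries are scaled by TMM or by total count. OA stood at 1.01 of control (0.867 to 1.17). SGPP1 (ENSG00000126821.7) lies on chromosome 14, 63684214 to 63728039, on the minus strand.

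ASAH1, the lysosomal acid ceramidase that supplies sphingosine, was within 1.2-fold in all 3 comparisons. It had 706, 601 and 532 counts. YA was at 0.854 of control (0.765 to 0.953) and OA at 0.898 (0.801 to 1.01). YA over OA was 0.951 with an interval that held 1 (0.845 to 1.07). ASAH1 (ENSG00000104763.18) covers 18055992 to 18084998 on chromosome 8.

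SPNS2, which carries S1P out of the cell, had few reads, at 73, 63 and 48 counts. It lies on chromosome 17, from 4498838 to 4539035. Its fold was 0.866 in YA (0.608 to 1.23) and 0.783 in OA (0.533 to 1.14). As a point the OA value passed 1.2-fold, but its interval held 1, so no difference was detectable at this depth. Of its exon bases, 3.38% are shared with genes on the other strand, MYBBP1A among them.

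Among the receptors, S1PR1 was higher and S1PR2 lower in OA-A375. S1PR1, which signals through Gi, had 43, 51 and 118 counts. OA stood apart from both other libraries, at 3.27 of control (2.29 to 4.75), the largest fold of any member in any comparison. YA was at 1.19 of control with an interval from 0.777 to 1.83 and at 0.364 of OA (0.257 to 0.510). S1PR1 (ENSG00000170989.8) covers 101236865 to 101243713 on chromosome 1 and shares no exon base with another gene.

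S1PR2, which couples to G12/13, had 746, 581 and 360 counts. Each library was apart from the others. The fold was 0.781 in YA (0.700 to 0.872) and 0.575 in OA (0.506 to 0.653), and YA was 1.36-fold of OA (1.19 to 1.55). S1PR2 (ENSG00000267534.2; chromosome 19, 10221433 to 10231331, minus strand) shares 2.28% of its exon bases with DNMT1, its neighbour on the same strand. DNMT1 had 7499, 8328 and 7903 counts and was at 1.25 of control in OA (1.22 to 1.30), the other direction from S1PR2.

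S1PR5 differed in YA rather than in OA. It had 130, 88 and 113 counts. YA was at 0.679 of control (0.512 to 0.897) and at 0.656 of OA (0.491 to 0.874), while OA was at 1.03 of control (0.798 to 1.34). S1PR5 (ENSG00000180739.13) lies near S1PR2 on chromosome 19, from 10512742 to 10517931. S1PR3 had 8, 5 and 13 counts, with Poisson intervals from 3.45 to 15.8, 1.62 to 11.7 and 6.92 to 22.2. These overlap, and no fold is given. S1PR3 lies on chromosome 9, from 88990863 to 89005010. S1PR4, the receptor of lymphoid cells and not one of the 10 genes, had 27, 26 and 42 counts and was at 1.85 of control in OA (1.12 to 3.13).

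**Figure D2:**
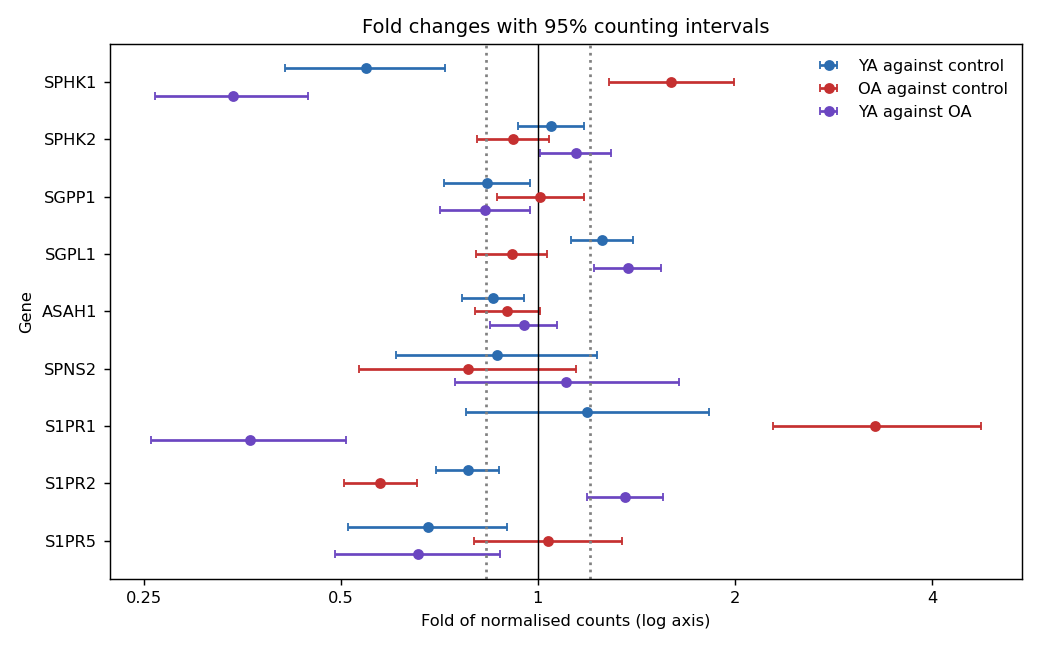
Ratio of normalised counts (log axis) for the 9 genes that passed the count limit in each of 3 comparisons, with 95% Clopper-Pearson counting intervals as bars, a solid line at 1 and dotted lines at 1.2-fold either way. SPHK1 lies left of 1 in YA against control and right of it in OA against control, S1PR1 reaches 3.27 in OA, and S1PR2 lies left of 1 in both.

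The receptor makeup of OA stood apart from that of both other libraries. S1PR2 took 80.5% of the reads of the 4 receptors in control (77.8 to 83.0), against 80.1% (77.0 to 83.0) for YA and 59.6% (55.6 to 63.5) for OA. S1PR1 took 4.64% (3.38 to 6.20), 7.03% (5.28 to 9.15) and 19.5% (16.5 to 22.9). The OA intervals of both receptors lay apart from those of control and YA, whose own intervals overlapped. S1PR5 took 14.0%, 12.1% and 18.7% in control, YA and OA, and S1PR3 took 2.15% at most. Per exon length, S1PR2 still led with 78.8%, 79.3% and 60.8%, and S1PR5 was second in all 3 libraries. The reads of S1PR1 per read of S1PR2 were 0.0576 (0.0414 to 0.0784), 0.0878 (0.0646 to 0.117) and 0.328 (0.264 to 0.405). Summed receptor reads were lower in both secretomes by like amounts, at 0.784 of control in YA (0.711 to 0.865) and 0.776 in OA (0.699 to 0.861).

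**Figure D3:**
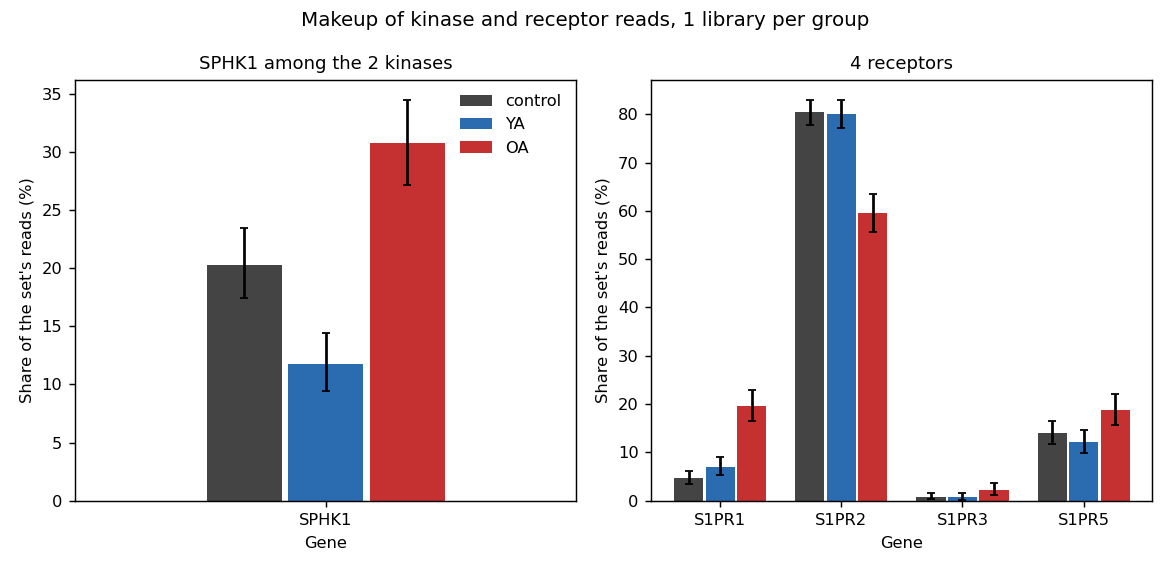
Share of reads, in percent, of SPHK1 among both sphingosine kinases (left) and of each receptor among S1PR1, S1PR2, S1PR3 and S1PR5 (right), in 1 library per group, with 95% Clopper-Pearson intervals as bars. SPHK1 takes 20.3%, 11.7% and 30.7% in control, YA and OA, and S1PR2 is at 59.6% and S1PR1 at 19.5% in OA.

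Set against each other per exon length, in RPKM, the transcripts kept much the same order across libraries. S1PR2 led in control at 9.55 (8.88 to 10.3), followed by SGPP1 at 5.35, SPHK2 at 4.48 and SGPL1 at 3.70. S1PR5 at 2.16 and ASAH1 at 2.14 came next and were not apart beyond counting error, nor were SGPP1 and SPHK2. SPHK1 at 1.55, SPNS2 at 0.828, S1PR1 at 0.384 and S1PR3 at 0.0275 closed the order. In YA, S1PR2 led at 7.49, while SPHK2 at 4.70, SGPL1 at 4.65 and SGPP1 at 4.49 overlapped in turn. ASAH1 at 1.83 overlapped with S1PR5 at 1.47, SPHK1 at 0.850 with SPNS2 at 0.719, and SPNS2 with S1PR1 at 0.458. In OA, S1PR2 at 5.46 no longer stood apart from SGPP1 at 5.37. SPHK1 at 2.47 had passed S1PR5 at 2.23 and ASAH1 at 1.91, although its interval overlapped that of S1PR5, and S1PR1 at 1.25 lay above SPNS2 at 0.646. The exon lengths join all annotated isoforms, and reach 15378 bases for ASAH1 and 13578 for S1PR3, which lowers the values of these genes where short isoforms prevail.

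The counts of members past 1.2-fold were read against the same counts over all genes. In YA against control, 1 of 9 was at least 1.2-fold higher (SGPL1) and 3 were lower (SPHK1, S1PR2 and S1PR5), beside 17.4% higher and 16.4% lower among all genes tested. In OA against control, 2 were higher (SPHK1 and S1PR1) and 2 lower (S1PR2 and SPNS2), beside 21.1% and 21.5%. In YA against OA, 2 were higher (SGPL1 and S1PR2) and 4 lower (SPHK1, S1PR1, S1PR5 and SGPP1), beside 23% and 21.5%. When the whole interval had to lie past 1.2-fold, YA against control gave 0 higher and 1 lower, beside 6.03% and 4.44% of all genes. The same rule gave 2 higher and 1 lower in OA against control, beside 9.04% and 9.08%, and 1 higher and 2 lower in YA against OA, beside 10% and 9.03%. The median log2 fold change of the 9 members was -0.23 in YA against control, -0.13 in OA against control and -0.07 in YA against OA, where all genes had -0.02, 0.01 and -0.01. With 9 members, no count is read as more than a description. YA and OA share the control library, so the values against control are not independent of each other.

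The rest of the pathway was read from lists written for this comparison. Over all genes tested, 33.8% were past 1.2-fold in either direction for YA against control and 42.6% for OA against control, with median log2 fold changes of -0.02 and 0.01, and each list below is set against these shares. Of 11 other genes of S1P dephosphorylation, export, carriage and sensing, 8 had enough counts. In YA 0 of the 8 were higher and 2 lower, with a median log2 fold change of -0.13, and in OA 3 were higher and 0 lower, with a median of 0.21. These are 25% and 37.5% of the list, both below the shares over all genes in either direction. Each set of calls went 1 way, however. Beside the shares for that direction, 16.4% lower in YA and 21.1% higher in OA, both were above. With 8 genes this is a description only. ABCA1, a lipid exporter that has been linked to S1P release, had 348, 287 and 449 counts, and was at 0.827 of control in YA (0.705 to 0.970) and 1.54 in OA (1.33 to 1.77). ABCG2 had 101, 77 and 109 counts, with a fold of 0.765 in YA (0.561 to 1.04) and 1.29 in OA (0.972 to 1.70), both with intervals that held 1. SGPP2, the other S1P phosphatase, had 7, 14 and 6 counts, and the exporter MFSD2B had 5, 6 and 10. The broad lipid phosphatases PLPP1, PLPP2 and PLPP3 were within 1.2-fold of control in both secretomes.

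Of the genes that make ceramide anew or, like the ORMDL genes, restrain that synthesis, 14 had enough counts. Of these, 1 was higher and 0 lower in YA, and 2 were higher and 4 lower in OA, with medians of -0.07 in both. That is 7.14% in YA, where all genes had 33.8%, and 42.9% in OA, where all genes had 42.6%. CERS4, a ceramide synthase, was higher in YA and lower in OA, with 131, 170 and 43 counts. It was at 1.30 of control in YA (1.03 to 1.65) and 0.391 in OA (0.270 to 0.556). CERS1, the synthase known from brain and muscle, was at 0.716 in OA (0.547 to 0.934). Of the serine palmitoyltransferase genes, which catalyse the first step, SPTLC3 was at 1.48 of control in OA (1.10 to 1.98) and the small subunit SPTSSA at 1.38 (1.26 to 1.52), while SPTLC1 was at 0.828 (0.775 to 0.884) and SPTLC2 at 0.776 (0.718 to 0.839).

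Among 18 counted genes of ceramide and sphingolipid breakdown, 0 were higher and 2 lower in YA, and 2 were higher and 3 lower in OA, with medians of 0.04 and 0.05. The called shares, 11.1% and 27.8%, were below the 33.8% and 42.6% of all genes. The alkaline ceramidase ACER3 had 776, 650 and 485 counts and was at 0.745 of control in OA (0.663 to 0.835), and the sialidase NEU1 was at 0.747 (0.655 to 0.851). GM2A, the activator protein for ganglioside hydrolysis, was at 1.41 in OA (1.26 to 1.59). The neutral ceramidase ASAH2 was at 1.30 in OA with an interval that held 1 (0.940 to 1.81). In YA, ACER2 was at 0.770 (0.505 to 1.17) and SMPDL3A at 0.822 (0.639 to 1.06), both within counting error.

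Of 14 genes of complex sphingolipid synthesis, a list that also holds lipid transfer proteins and CERK, 5 were higher and 6 lower in OA, with a median of -0.11. In YA 0 were higher and 3 lower, with a median of -0.09. That is 78.6% called in OA, beside 42.6% of all genes, and 21.4% in YA, beside 33.8%. The YA calls were all lower, and 16.4% of all genes were lower in YA. ST8SIA1, the synthase of ganglioside GD3, a surface antigen of melanoma, had 21, 22 and 85 counts, or 4.82 of control in OA (2.96 to 8.19), and its control and YA counts lie near the count limit. SGMS2, a sphingomyelin synthase of the plasma membrane, had 132, 136 and 263 counts, or 2.37 (1.92 to 2.95). ST3GAL5, which makes ganglioside GM3, was at 0.680 in OA (0.600 to 0.770). CERK, the ceramide kinase, was lower in both, at 0.776 in YA (0.708 to 0.850) and 0.750 in OA (0.681 to 0.826). B4GALT6, a lactosylceramide synthase, had 1502, 997 and 1787 counts and was lower in YA, at 0.666 of control (0.614 to 0.722), and higher in OA, at 1.42 (1.32 to 1.52).

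Of 20 genes that carry the signal of S1P receptors, 0 were past 1.2-fold in YA in either direction, with a median of -0.01, and 5 were higher and 2 lower in OA, with a median of 0.11. The 35% called in OA is below the 42.6% of all genes, and YA had 33.8% over all genes. GNAI1, a Gi subunit, was at 1.35 of control in OA (1.16 to 1.57), and GNAQ, the Gq subunit, at 0.712 (0.669 to 0.758), with 2673 counts in control and 1597 in OA. PLCB1, a phospholipase that Gq activates, was at 0.820 (0.710 to 0.946). TRAF2, an adaptor of TNF receptors reported to bind S1P, was at 1.40 (1.25 to 1.57). The G12 and G13 subunits GNA12 and GNA13 were within 1.2-fold of control in both secretomes.

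IL6 was higher and STAT3 lower in OA. IL6, the cytokine whose receptor signals through STAT3, had 5, 10 and 65 counts, which is 2.01 of control in YA (0.625 to 7.48) and 15.5 in OA (6.31 to 49.3). It passed the count limit only through OA, and 20.7% of its exon bases lie under exons of the other strand. STAT3 had 4047, 3855 and 2572, or 0.757 of control in OA (0.720 to 0.796). Of 11 counted genes of this axis, 3 were higher and 1 lower in YA, and 2 were higher and 3 lower in OA, with medians of -0.01 and 0.06. These shares, 36.4% and 45.5%, lie near the 33.8% and 42.6% of all genes, and the higher genes include IL6, whose YA interval held 1. IL6R, the ligand-binding receptor, was at 0.758 in OA (0.654 to 0.878). SOCS3, a feedback inhibitor that STAT3 induces, had 665, 465 and 446 counts and was at 0.701 in YA (0.622 to 0.791) and 0.799 in OA (0.707 to 0.902). PIAS3, an inhibitor of STAT3, was at 1.51 in YA (1.39 to 1.64) and 1.31 in OA (1.202 to 1.436). RNA counts do not show STAT3 phosphorylation.

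**Figure D4:**
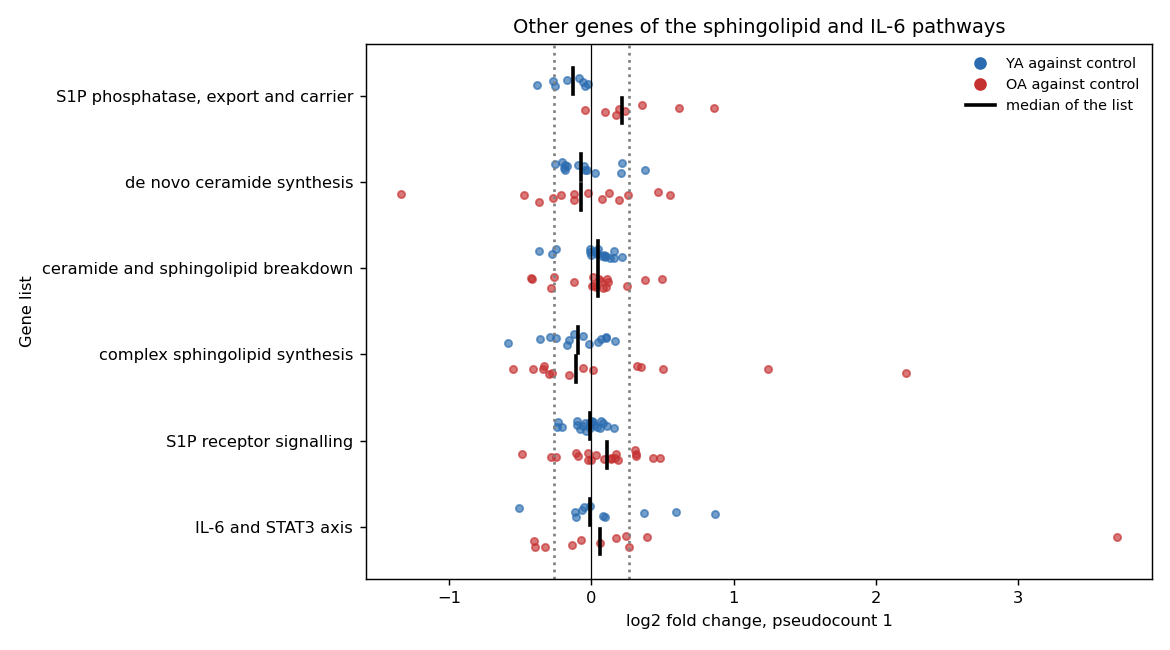
log2 fold change against control, with a pseudocount of 1, of each counted gene in 6 lists, for YA and OA, with the median of each list as a black bar and 1.2-fold dotted. IL6 and ST8SIA1 lie furthest right in OA and CERS4 furthest left, and the S1P receptor signalling genes stay within the dotted lines in YA.

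The genes with a pattern nearest to SPHK1 over the 3 libraries, by distance between the pairs of log2 fold changes against control among 11161 genes with a mean of at least 100, were SYTL2, AMACR and STC1. SYTL2, a vesicle transport gene, had 490, 268 and 633 counts, at a distance of 0.05. AMACR, a racemase of branched fatty acid oxidation, had 152, 85 and 219 at 0.11, and STC1, a secreted glycoprotein, had 338, 200 and 457 at 0.12. Nearest to S1PR1 were the lincRNA RP4-718J7.4 with 169, 217 and 481 counts, at 0.14, IRAK2, a kinase of interleukin-1 receptor signaling, with 139, 153 and 351, at 0.15, and FHOD3 with 231, 250 and 579, at 0.17.

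Within 100000 bases of SPHK1, 4 other genes had enough counts, and none was below control in YA and above it in OA. UBE2O was at 1.03 of control in YA (0.963 to 1.11) and 1.19 in OA (1.11 to 1.28), and RHBDF2 at 1.19 (1.03 to 1.38) and 0.987 (0.841 to 1.16). PRPSAP1 was at 1.115 and 1.126. QRICH2, with 33, 24 and 10 counts, was at 0.729 in YA, with an interval that held 1, and at 0.361 in OA (0.159 to 0.750). Around S1PR2, 5 counted genes lay within the same distance, and all 5 were above control in OA, the opposite of S1PR2. MRPL4 at 1.15 and RAVER1 at 1.14 were within 1.2-fold, and over all genes tested 21.1% were past 1.2-fold higher in OA. ICAM1, an adhesion molecule, was the furthest of the 5 at 2.70 of control in OA (2.51 to 2.91). S1PR1 had no counted neighbour in that range.

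Markers of other cells were read beside these values. In bulk RNA, fewer cells of a type and less RNA per cell cannot be told apart. The 10 adipocyte markers summed to 34.0, 60.9 and 25.5 CPM (counts scaled to library total). All 5 of these markers with enough counts were past 1.2-fold higher in YA, CFD and GPD1 with intervals that held 1, and 3 were higher and 1 lower in OA. Over all genes tested, 17.4% were higher in YA, and 21.1% were higher and 21.5% lower in OA. PLIN4, which coats lipid droplets, had 284, 579 and 321 counts. LPL, a lipase, had 353, 583 and 30, so that OA was at 0.101 of control (0.0673 to 0.147). CIDEC, a lipid droplet protein, had 6, 31 and 36, the control count lying under the limit of 20. The hormones ADIPOQ and LEP, which adipocytes secrete, had 1 count at most and 0, and CIDEA and PLIN1 had 0 and at most 5. FABP4 had 16, 15 and 2 counts, too few for a fold change, and was not higher in YA. The 8 fibroblast markers summed to 35.0, 44.5 and 30.7 CPM, of which PDGFRB carried the most with 515, 568 and 334 counts. Of these 8 markers, 5 had enough counts, with 3 higher and 1 lower in YA and 2 higher and 2 lower in OA. That is 80% called in each, beside 33.8% and 42.6% of all genes. DCN, a matrix proteoglycan, was highest in YA with 13, 138 and 24 counts, the control count lying under the limit of 20. LUM was at 1.535 of control in YA (1.11 to 2.13) and COL1A1 at 1.565 (1.16 to 2.12). The receptor PDGFRA was lowest in YA with 76, 20 and 51 counts, or 0.264 of control (0.153 to 0.437). COL1A2 and COL3A1 had 2 counts at most. The 7 endothelial markers summed to 11.8, 12.1 and 5.97 CPM, mostly from KDR with 180, 190 and 65 counts, and only 2 of the 7 had enough counts. The 6 leukocyte markers summed to 7.23, 7.18 and 5.03 CPM, nearly all from LYZ with 148, 143 and 86 counts, while PTPRC, CD3E and CD68 had 1 count or fewer. Of the exon bases of CD68, 85.8% are shared with other genes, and whether it lost reads there was not tested. A375 is a cell line, and by the study's methods the secretomes were centrifuged and frozen before use. These genes are therefore read as transcripts in A375 libraries and not as a count of other cells. Whether any other cells had a part in the differences between libraries was not tested.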

How the data were processed

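RNA of 3 A375 samples (control, YA, OA, 1 library each, grouped by the treatment label) had been sequenced as poly(A) libraries. The authors deposited raw counts per gene. The submitters' processing notes name hg38, STAR 2.5.1b, featureCounts and R 3.6.1; the annotation release and strand setting are not given in the sources used here. The 10 members and the gene lists were chosen with earlier results of these data known. Counts were divided by DESeq2 1.42.0 median-of-ratios size factors in R 4.3.3 (1.06 in control, 1.06 in YA, 0.891 in OA); DESeq2 and edgeR tests were not run, because 1 library per group leaves no spread to estimate. The log2 fold change used a pseudocount of 1 over the 14413 genes averaging 20 or more normalised counts, which hold 99.7% of counts. Intervals are 95% Clopper-Pearson for folds and shares and exact Poisson for levels; reads were amplified and carry no molecular identifiers, so the intervals cover counting error only and compare libraries, not conditions. A count of 0 allows up to about 3 counts at a 1-sided 95% limit.

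Positions, exon lengths and overlaps came from GENCODE 29 on GRCh38, matched by identifier without version (57433 of 58037 found), and may differ from the release counted. Promoters came from RefSeq (GRCh38.p14). Named beside the members were up to 2 genes furthest in each direction per list in YA and in OA against control, IL6 and STAT3, and the 3 genes nearest in pattern to SPHK1 and to the other member with the largest fold. SPTLC1, SPTLC2, SGPP2, MFSD2B, the PLPP genes, GNA12, GNA13, the markers and the overlapping or neighbouring genes were added after values were seen. The alternatives were edgeR 4.0.16 TMM and total-count scaling, a pseudocount of 5, a mean of 100 or no minimum at all, stricter thresholds and reads per exon length. Other steps ran in Python 3.11.15 (scipy 1.17.1, pandas 2.3.3, numpy 2.4.6, matplotlib 3.10.9). The code for fold changes and intervals was run on counts simulated with counting error only. That check holds no spread between replicate libraries, so it says nothing about such spread here.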

Additional observations from a re-analysis of the deposited data

Results flagged for a closer look

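SPHK1 moved in opposite directions in the secretomes, lower than control in YA and higher in OA, each past 1.2-fold. It was the only one of the 9 members with a fold change to do so. The log2 fold change of SPHK1 in YA against OA was -1.54. The share of all genes tested with opposite directions was not computed, and the pattern was not particular to SPHK1. ABCA1 was at 0.827 of control in YA and 1.54 in OA, and B4GALT6 at 0.666 and 1.42. CERS4 went the reverse way, at 1.30 and 0.391. With 1 library per group and a shared control, the difference between the secretomes was not tested.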

How the results depend on the processing

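The 6 counts of members past 1.2-fold stayed within 1.5 times of those reported under TMM scaling, total-count scaling, a pseudocount of 5 and no filter. Under both scalings SGPP1 left the YA against OA count, where 3 members were then lower. A minimum mean of 100, which drops S1PR1 and SPNS2, left 1 higher and 1 lower for OA over control. A 2-fold threshold and a log2 threshold of 1.2 gave equal numbers: for YA over control 0 higher and 0 lower, for OA over control 1 and 0, for YA over OA 0 and 2. Requiring the whole interval past 1.2-fold gave 0 and 1 for the first of these comparisons, 2 and 1 for the second, 1 and 2 for the last. Stricter thresholds lower the counts by construction. Of 27 member fold changes, 26 kept their sign under TMM scaling, the exception being SGPP1 in OA, which was near 0 in both. All 27 kept it under total-count scaling and a pseudocount of 5, which moved S1PR1 in OA most, by 0.09 on the log2 scale. Leaving out a library was not possible with 1 per group. No paired analysis was possible because each group is 1 library. Depth limits S1PR3 and SPNS2 most, and S1PR1 in YA.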
